A study of Caenorhabditis elegans with 2 samples.

Results

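Translation factor genes were examined for binding of LIN-54, a DNA-contacting subunit of the DREAM complex, in whole young adult Caenorhabditis elegans. The genes were all protein-coding genes whose names start with eif-, ife- or eef-, which gave 36 of the 19973 protein-coding genes in the Ensembl annotation of WBcel235. They comprise 30 genes with initiation factor names and 6 elongation factor genes. Binding was mapped by chromatin immunoprecipitation and sequencing (ChIP-seq) with an anti-GFP antibody on sonicated chromatin. The 2 biological replicates, with 1 library each, form 1 group, so there is no second condition to compare. The animals were of strain OP743, which carries the unc-119(tm4063) allele and the integrated fosmid transgene wgIs743, expressing LIN-54 tagged with TY1, EGFP and 3xFLAG together with unc-119(+). They were of mixed sex, 65 hours old and synchronised as starved L1 larvae after bleaching, and all tissues were pooled in each library. Binding in the germline and in somatic cells therefore cannot be told apart, and the tagged protein is expressed from the fosmid copy.

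DREAM joins LIN-54 to an E2F and DP pair and to an Rb-like protein, and it is known for repressing cell cycle genes. LIN-54 itself contacts the CHR element (cell cycle genes homology region), and its E2F partner contacts the E2F site. Translation initiation begins when eIF2 brings initiator tRNA to the small ribosomal subunit, where eIF1, eIF1A and the eIF3 scaffold help it to scan for a start codon on mRNA recruited through the cap-binding protein eIF4E. In elongation eEF1A then delivers each aminoacyl tRNA, the eEF1B subunits recharge eEF1A with GTP, and eEF2 moves the ribosome along the mRNA.

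The sequences below, from the WBcel235 reference genome, surround the LIN-54 summits, the positions of maximal signal within peaks, at genes that the results turn on. Each reaches 50 bp from the summit in both directions and is written 5′ to 3′ on the strand of the gene, cut off where an annotated exon begins. Capitals mark a CHR element (TTTGAA or TTCGAA) or an E2F site (TTCCCGC or TTCGCGC, or else TTGCCGC or TTGGCGC) on either strand. The first pair are the eEF1A genes, which encode the same factor from different chromosomes.
eef-1A.1, chrIII:6972053-6972153, minus strand: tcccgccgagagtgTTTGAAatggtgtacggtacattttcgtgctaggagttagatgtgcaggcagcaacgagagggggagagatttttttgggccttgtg
eef-1A.2, chrX:7823211-7823311, plus strand: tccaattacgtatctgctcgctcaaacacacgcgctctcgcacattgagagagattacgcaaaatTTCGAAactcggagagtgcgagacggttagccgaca

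The eEF1B genes are shown because eef-1B.1 had an E2F site, and eef-1B.2 had a pair of CHR elements on opposite strands with 1 bp between them.
eef-1B.1, chrIII:7973387-7973461, minus strand: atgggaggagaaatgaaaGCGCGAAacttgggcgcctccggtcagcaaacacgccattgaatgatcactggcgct
eef-1B.2, chrIV:15037106-15037206, plus strand: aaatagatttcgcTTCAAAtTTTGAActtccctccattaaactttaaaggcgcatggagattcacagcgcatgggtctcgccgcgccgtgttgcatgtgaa

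Among initiation factors, eif-3.B had a second such CHR pair, eif-3.D had an E2F site centred 2 bp from the summit, and ife-3 was the only bound eIF4E gene.
eif-3.B, chrII:14795106-14795206, plus strand: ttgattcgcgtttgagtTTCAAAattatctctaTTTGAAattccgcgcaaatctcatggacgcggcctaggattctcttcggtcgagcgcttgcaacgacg
eif-3.D, chrIII:8971776-8971876, minus strand: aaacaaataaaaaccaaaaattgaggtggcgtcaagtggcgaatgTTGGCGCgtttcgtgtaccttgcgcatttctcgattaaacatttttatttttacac
ife-3, chrV:8201-8301, minus strand: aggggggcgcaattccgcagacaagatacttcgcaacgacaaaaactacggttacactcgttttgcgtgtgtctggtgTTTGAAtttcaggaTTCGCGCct

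LIN-54 peaks were found at the promoters of 22 of the 36 translation factor genes. A gene was called bound when the summit of a peak that passed the authors' irreproducible discovery rate (IDR) procedure lay between 1000 bp upstream and 300 bp downstream of any of its 5′ ends. By this rule the bound share was 61.1% (22 genes, Wilson 95% interval 44.9% to 75.2%), against 14.3% of all protein-coding genes (2859 of 19973). The count was 14 of 36 with the 1724 strongest IDR peaks (8.90% of all genes). It was 16 of 36 when a peak counted only for the protein-coding gene with the closest 5′ end (10.6%). Peak strength is given as signal, the peak caller's value for each region as the authors deposited it. The median signal was 219 over the 22 bound genes, against 222 over all 2859 bound genes. The lowest was 102 at eif-1 and the highest 2670 at eef-2. Intervals cover counting error over genes only, no test of the list was made, and the read depth behind each value is unknown.

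**Figure D1:**
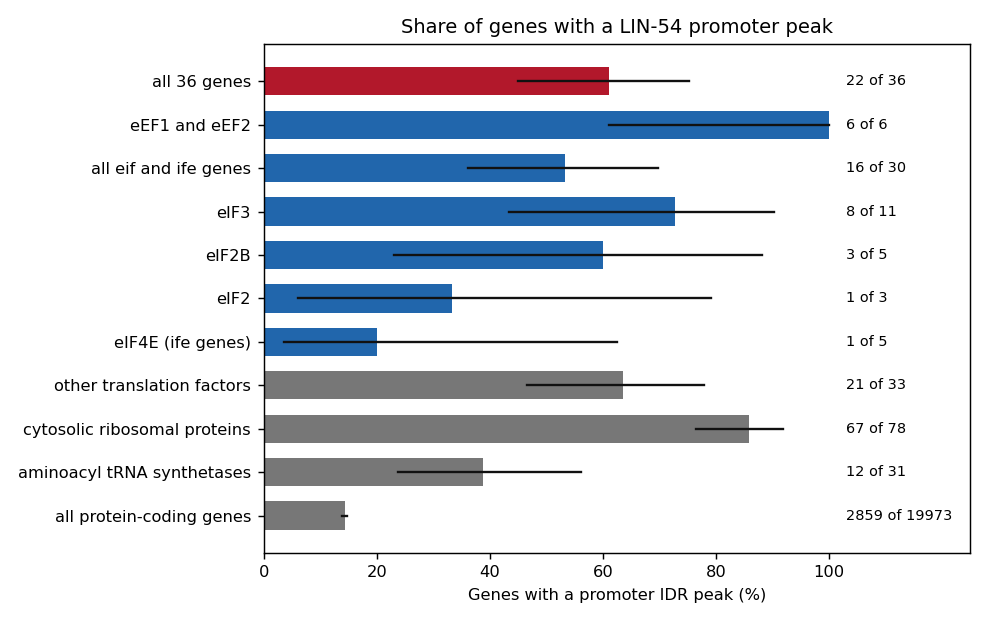
Bars give the share of genes with an IDR peak in the promoter window (percent), lines the Wilson 95% interval, and the numbers the genes bound of all genes in each set. All 6 elongation factor genes were bound and 1 of the 5 ife genes, against 14.3% of all protein-coding genes.

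By role, the bound share ran from none to all of the genes, and differences between roles were not tested. All 6 elongation factor genes and 8 of 11 eIF3 genes carried a peak, against 3 of 5 eIF2B genes, 1 of 3 eIF2 genes and 1 of 5 ife genes. Both start codon selection genes, eif-1 and eif-1.A, were bound, as was eif-6, while eif-2A, eif-2D and eif-4A3 were not. The median signal was 661 at the 6 elongation genes and 178 at the 16 bound initiation genes. Every elongation gene ranked among the first 1000 of the 3449 IDR peaks, and so did 2 of the 16 initiation genes. Over all bound genes, 40.4% had a peak that strong.

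The count depended most on how many peaks were kept. With the 1724 strongest IDR peaks, 14 genes were bound, against 8.90% of all genes, and eif-1, eif-1.A, eif-2gamma, eif-2Bbeta, eif-3.G, eif-3.J, ife-3 and eif-6 lost their peak. All 6 elongation genes kept theirs, which follows from their ranks within the first 1000. With the 3449 strongest regions of replicate 2 alone 24 genes were bound (14.3% of all genes), and with those of replicate 1 alone 22 (13.8%). A window of 500 bp upstream to 200 bp downstream left 20 genes (11.7%), and one of 2000 bp to 500 bp gave 23 (17.4%).

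The elongation genes held the strongest peak of the whole set. At eef-2, which encodes the translocation factor, the signal was 1329 in replicate 1 and 1337 in replicate 2, and 2670 in the pooled list (chromosome I, 9163325 to 9163727, rank 8). Its summit lay 18 bp upstream of the 5′ end, between eef-2 and the divergent claspin gene clsp-1. The eEF1A gene eef-1A.1 had 573 in replicate 1 and 621 in replicate 2, and 1186 pooled (III, 6971932 to 6972256, rank 71). Its summit was at -391 bp, and lay nearer to the divergent clamp loader gene rfc-4, at -150 bp, and 18 bp from the miRNA gene cel-mir-5549.

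The second eEF1A gene, eef-1A.2, was bound more weakly. It had 161 in replicate 1 and 139 in replicate 2, and 295 pooled (X, 7823176 to 7823362, rank 867), at -393 bp and in the window of no other gene. Both replicates thus placed eef-1A.2 below eef-1A.1, and the 36 bp sequences within each of the 22 peaks occurred only once in the genome. The read length was not used here.

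The exchange factor genes lay between these. The eEF1 gamma gene eef-1G had 351 in replicate 1 and 418 in replicate 2, and 759 pooled (V, 10965530 to 10965815, rank 178). At eef-1B.2 the signals were 287 in replicate 1 and 273 in replicate 2, and 563 pooled (IV, 15037039 to 15037287, rank 327). At eef-1B.1 they were 213 in replicate 1 and 218 in replicate 2, and 432 pooled (III, 7973295 to 7973512, rank 485). The order of the pooled signals from eef-2 through eef-1A.1, eef-1G, eef-1B.2 and eef-1B.1 to eef-1A.2 was the same in each replicate. Of the 6 peaks, 4 were shared with a divergent gene (66.7%), while 53.5% of all bound genes shared their peak with another gene. The partners clsp-1, rfc-4 and ctf-4 are genes of DNA replication or its checkpoint. The fourth partner, aco-2, encodes mitochondrial aconitase. How often replication genes share a promoter peak over all genes was not counted.

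**Figure D2:**
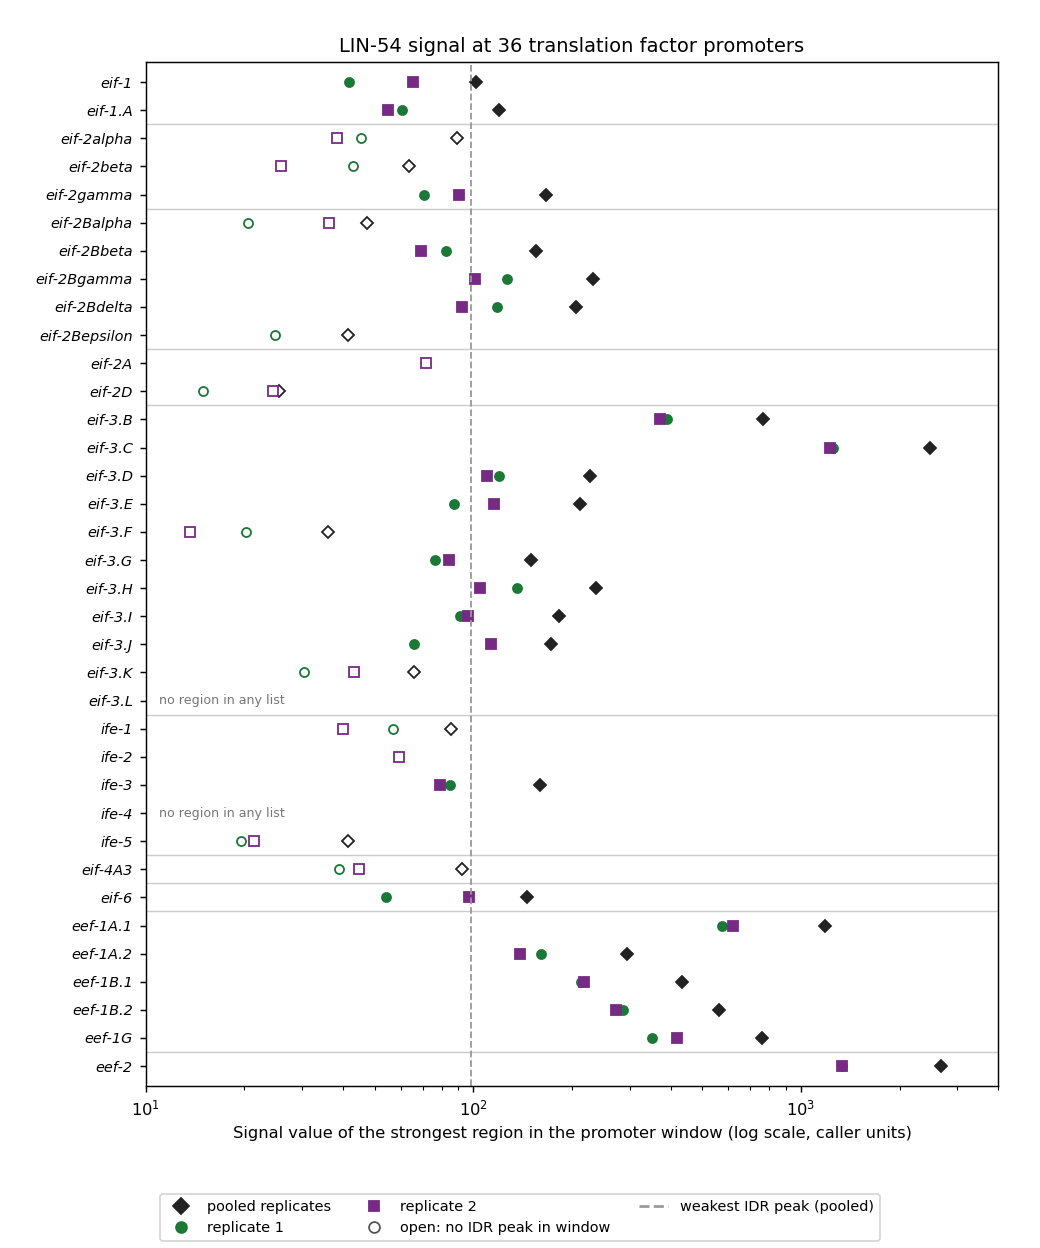
Signal of the strongest region in the promoter window of each of the 36 genes (log axis, caller units) in the pooled list (diamonds), replicate 1 (circles) and replicate 2 (squares), with lines between roles. Open symbols mark genes without an IDR peak, and the dashed line the weakest IDR peak, at 98.2 on the pooled scale. Only eif-3.C and eif-3.B among initiation genes reach the range of the elongation genes, and eif-3.L and ife-4 have no region in any list.

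Among initiation factors, eif-3.C and eif-3.B stood apart. The eIF3 complex binds the small ribosomal subunit and holds the other initiation factors in place. At eif-3.C, a core subunit gene, the signal was 1251 in replicate 1 and 1223 in replicate 2, and 2471 pooled (I, 9979748 to 9980092), and it ranked 12 in all 3 lists. At eif-3.B, another core subunit gene, it was 390 in replicate 1 and 372 in replicate 2, and 765 pooled (II, 14794960 to 14795300, rank 177). Both summits, at -242 bp and -248 bp, lay in the window of a single gene, so no neighbour shares these peaks.

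The other bound eIF3 genes had moderate peaks. The strongest was eif-3.H, with 136 in replicate 1 and 105 in replicate 2, and 236 pooled (I, 4444406 to 4444508, rank 1187). The pooled signals of eif-3.D, eif-3.E, eif-3.I, eif-3.J and eif-3.G were 227, 211, 182, 173 and 150. The eif-3.J summit, at -924 bp, lay in the 3′ untranslated region of the neighbouring slc-25A46, and eif-3.G had a second IDR peak with a signal of 113 at 132 bp downstream of its 5′ end.

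The other 3 eIF3 genes, eif-3.F, eif-3.K and eif-3.L, were not bound. The strongest pooled region at eif-3.K had a signal of 66.1 and ranked 5917 of 30000, that at eif-3.F ranked 16059, and eif-3.L had no region in the pooled list or in either replicate. The eIF3 subunits that carry other names, egl-45 (eIF3A) and cif-1 (eIF3M), were not bound either, with pooled signals of 31.1 and 71.6. They were added after the values of the others were seen.

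Genes of eIF2 and its exchange factor were bound unevenly. eIF2 carries initiator tRNA in its GTP-bound form, and eIF2B restores that form. Of the eIF2 genes, eif-2gamma, the GTP-binding subunit gene, had 70.5 in replicate 1 and 90.4 in replicate 2, and 167 pooled (I, 2312967 to 2313302, rank 1840). The gene of the subunit that stress kinases phosphorylate, eif-2alpha, had a pooled signal of 88.9 and ranked 3888, just below the weakest IDR peak. At eif-2beta it was 63.8, ranked 6258.

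For eIF2B, eif-2Bgamma had 127 in replicate 1 and 101 in replicate 2, and 232 pooled (II, 6968314 to 6968400, rank 1208). That summit, at -753 bp and 1 bp beyond the end of the deposited region, lay in an intron of C15F1.5 and within sup-39, with mir-1831 within 200 bp, both of which the annotation lists as small nuclear RNA genes. Which of these genes the peak belongs to cannot be told apart. A second IDR peak in the eif-2Bgamma window, at -955 bp, had a signal of 155 (II, 6968542 to 6968682, rank 1985). At eif-2Bdelta the signals were 118 in replicate 1 and 92.6 in replicate 2, and 206 pooled (V, 9513633 to 9513968, rank 1415), 23 bp upstream of the 5′ end. At eif-2Bbeta they were 82.6 in replicate 1 and 69.2 in replicate 2, and 155 pooled (I, 11893704 to 11894039, rank 1991), nearer to the divergent gene Y47H9C.8. The remaining eIF2B genes had only weak regions, with pooled signals of 47.5 at eif-2Balpha and 41.4 at eif-2Bepsilon.

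The start codon selection genes had the weakest peaks. At eif-1.A the signals were 60.4 in replicate 1 and 54.9 in replicate 2, and 120 pooled (IV, 4810392 to 4810727, rank 2673). At eif-1 they were 41.8 in replicate 1 and 65.6 in replicate 2, and 102 pooled (II, 4993785 to 4994120, rank 3283). The eif-1 peak lay close to the end of the IDR list and only 45 bp from the divergent vps-24. It was the only one of the 22 whose rank in a replicate, 5102 in replicate 1, fell beyond the length of the IDR list. At eif-6, which keeps the ribosomal subunits apart, the signals were 54.2 in replicate 1 and 97.0 in replicate 2, and 146 pooled (I, 12968440 to 12968775, rank 2123), in the space shared with the proteasome subunit gene pbs-2.

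Of the 5 genes for the cap-binding protein eIF4E, 1 was bound. ife-3, which is needed for embryonic viability, had 84.7 in replicate 1 and 79.1 in replicate 2, and 160 pooled (V, 8195 to 8331, rank 1920). ife-1, whose product associates with germ granules, had 57.0 in replicate 1, 40.0 in replicate 2 and 85.5 in the pooled list (rank 4101). The replicate 1 value ranked 3201, within the number of IDR peaks. The strongest region lay at 149 bp in replicate 1 and at -639 bp in replicate 2. ife-5 had a pooled signal of 41.5 (rank 12851), and ife-2 and ife-4 had no pooled region.

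The other unbound genes were eif-4A3, eif-2A and eif-2D. eif-4A3 encodes the RNA helicase of the exon junction complex and had the highest pooled signal of any unbound gene, 92.2 at rank 3726, against 98.2 for the weakest IDR peak. eif-2D, whose mammalian counterpart can deliver initiator tRNA without eIF2, had 25.5 at rank 25338, and eif-2A had no pooled region. Thus 4 of the 36 genes had no pooled region in the promoter window (eif-2A, eif-3.L, ife-2 and ife-4), against 12382 of all 19973 protein-coding genes. Of the remaining 32, 22 were bound (68.8%), against 37.7% of the 7591 protein-coding genes with any pooled region.

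**Figure D3:**
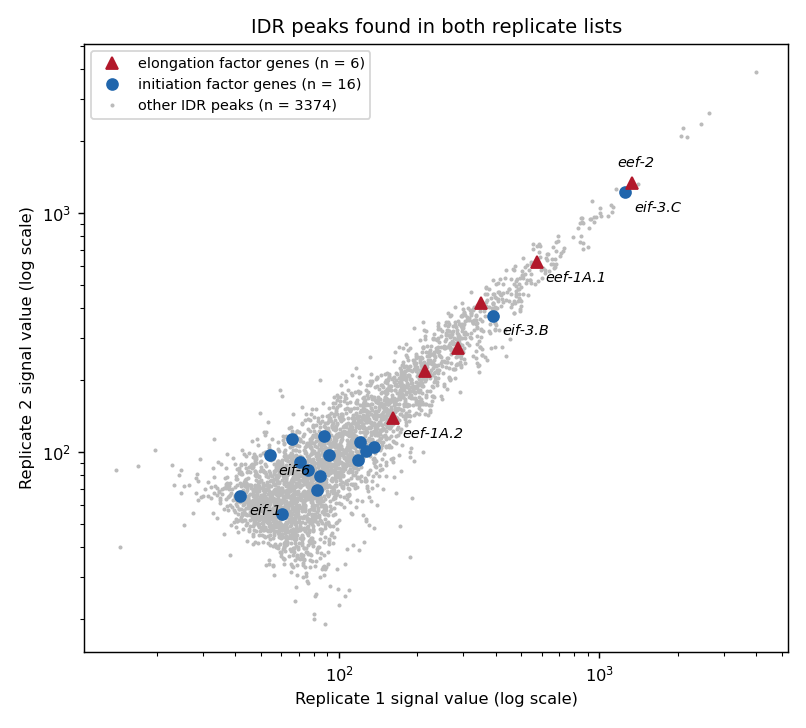
Each point is an IDR peak present in both replicate lists, with its signal in replicate 1 and replicate 2 (log axes, caller units): elongation factor genes (triangles), initiation factor genes (circles) and the other 3374 peaks (grey). The strong peaks of eef-2, eif-3.C and eef-1A.1 lie close to equal signals, while eif-1 and eif-6 are higher in replicate 2.

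All 22 peaks overlapped a region in both replicate lists by at least 50% of the shorter region, as did 98.5% of all 3449 IDR peaks. Of the 22, 21 (95.5%) met one of the 3449 strongest regions in each, against 77.9% of all 2281 promoter IDR peaks. The sets are not alike, since the 22 are each the strongest peak of a gene, as only 2091 of the 2281 are. Across the 22 peaks the correlation of log10 signals between replicates was 0.969 (Pearson) and 0.868 (Spearman, by rank). These are descriptions, since peaks share their libraries and were selected on the same replicates. The summits of the replicates lay within 22 bp of the pooled summit in replicate 1 and within 38 bp in replicate 2.

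**Figure D4:**
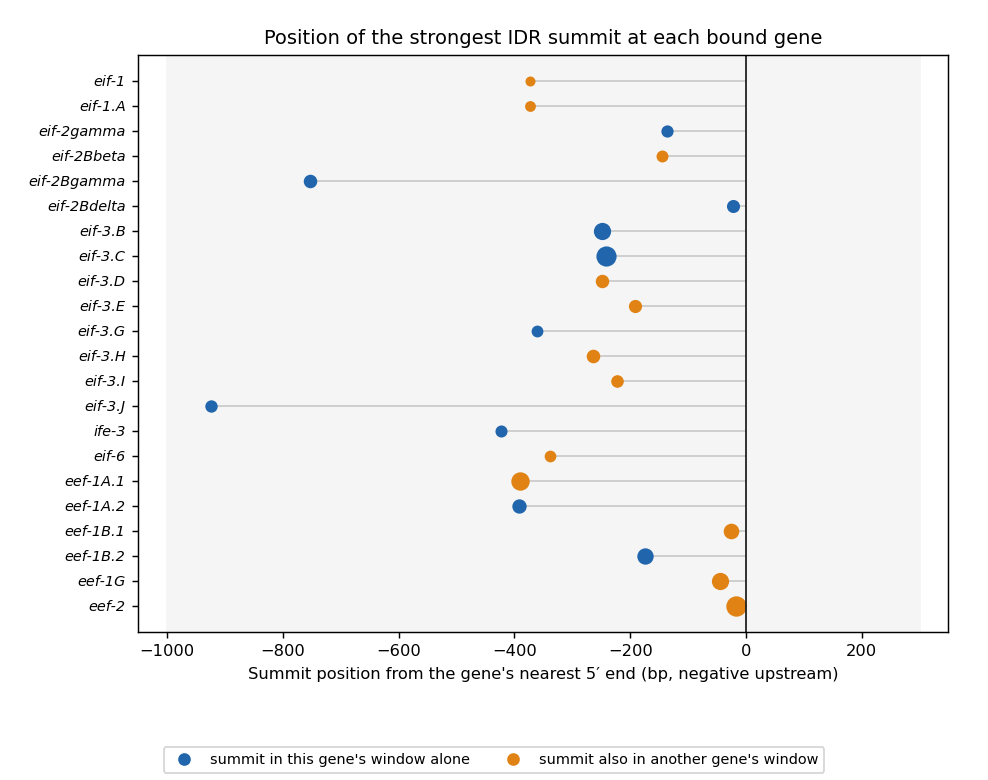
Position of the strongest IDR summit at each of the 22 bound genes, in bp from the nearest 5′ end of that gene (negative upstream), with larger points for higher pooled signal and the promoter window shaded. All summits lie upstream, 20 of them within 500 bp, and orange marks the 12 that also lie in the window of another gene.

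At all 22 bound genes the strongest LIN-54 summit lay upstream. Positions ran from -924 bp at eif-3.J to -18 bp at eef-2, with a median of -248 bp (quartiles -374 and -152 bp). Over all 2859 bound genes the median was -234 bp (quartiles -418 and -118 bp), so most of those summits lay upstream too. Of the 22 summits, 20 were intergenic, the exceptions being those of eif-2Bgamma and eif-3.J. In 12 cases (54.5%, against 53.5% of all bound genes) the summit also lay in the window of another gene, and each time a divergent neighbour was among them. With each peak given only to its nearest protein-coding gene, 16 of the 36 genes kept a peak (against 10.6% of all genes). By this rule eef-1A.1, eif-1, eif-2Bbeta, eif-3.D, eif-3.H and eif-6 lost theirs to a neighbour. The rule left eif-2Bgamma its peak, although that summit lay within sup-39. The position of these peaks does not show which gene they serve.

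Bound genes were found with each arrangement of the upstream neighbour, classes that were chosen after values were seen. With a divergent neighbour, 12 of 18 genes were bound (66.7%), against 20.1% of all genes so placed. With a neighbour on the same strand at least 500 bp away, 6 of 11 were bound (54.5%), against 7.09%. With a same-strand neighbour under 500 bp away, 4 of 7 were bound (57.1%), against 14.4%. Among these, the gap was 251, 294, 312 and 400 bp at the bound genes and 64, 115 and 132 bp at the unbound ones. Shorter and longer gaps within this class were not counted over all genes, and a relation to gap length was not tested.

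The DREAM sequence elements were found at about the frequency of other bound promoters. Within 50 bp of the summit, the E2F site was present at 5 of the 22 peaks (22.7%, Wilson 95% interval 10.1% to 43.4%), against 20.7% of the other 2259 promoter IDR peaks. The CHR element was present at 10 (45.5%, 26.9% to 65.3%), against 37.6%. The other promoter IDR peaks include the weaker second peaks of eif-2Bgamma and eif-3.G. Windows of the same 101 bp centred 150 bp upstream of every protein-coding gene held an E2F site in 3.54% and a CHR element in 34.1%. A CHR match is therefore common in promoters at large, and the interval for the 22 peaks includes that share. Within 25 bp the CHR share was 18.2% (15.1% of all promoter IDR peaks) and the E2F share 13.6% (11.6%). Within 100 bp the CHR share was 54.5% (58.9%) and the E2F share 31.8% (25.5%).

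By role, the counts are small and were not tested. Of the 6 elongation genes, 5 had a CHR element and 2 an E2F site, against 5 and 3 of the 16 bound initiation genes. eef-2 had 3 E2F sites, centred 46, 21 and 5 bp upstream of the summit, and a CHR element directly adjoining the last. In the sequence of eef-1B.1 shown above the E2F site lies 29 bp upstream of the summit, and a CHR element follows 34.5 bp downstream of it, beyond the 5′ end. ife-3 combined both, with the CHR element and the E2F site 8 bp apart. eif-2Bdelta and eif-3.D had an E2F site without a CHR element. At 10 of the 22 peaks neither element was found, against 1095 of the 2091 strongest peaks of all bound genes. Among the 10 were the strong peaks of eif-3.C and eef-1G.

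CHR elements at 3 genes formed pairs on opposite strands. These were eef-1B.2, with 1 bp between the elements, eif-3.B, with 10 bp, and eif-3.H, where they adjoin. Such a pair, at most 20 bp apart, was present at 3 of the 22 peaks (13.6%), against 0.841% of the other promoter IDR peaks (19 of 2259) and 1.13% of the 101 bp windows upstream of all genes. Over all 2281 promoter IDR peaks the share was 0.964%. The strand and spacing rule was set after the sequences were seen. Without it, 2 or more CHR elements were present at the same 3 peaks (13.6%), against 6.99% of the other promoter IDR peaks, 7.06% of all promoter IDR peaks and 7.38% of the upstream windows.

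A chosen list of translation factor and regulator genes with other names had a similar bound share. It includes kinase genes such as gcn-2, efk-1 and let-363, and leaves out egl-45 and cif-1, which were not bound. Of its 33 genes found in the annotation, 21 had a promoter peak (63.6%, Wilson 95% interval 46.6% to 77.8%), with a median signal of 224. Of these 21 peaks, 16 also lay in the window of another gene (76.2%, against 53.5% of all bound genes). With a window of 500 bp upstream to 200 bp downstream, 17 of the 33 genes were bound (11.7% of all genes). The summits of abcf-2, larp-1, ifet-1 and dohh-1 lay farther out, at -869, -665, -507 and -913 bp. The strongest were abcf-2, an ABC-F ATPase gene (signal 1860, shared with ant-1.1 and T27E9.2), drr-2, an eIF4H-like gene (1623, shared with set-16), and gcn-1, which activates the eIF2 kinase GCN-2 (1239). The eIF2 kinase gene gcn-2 itself had 488 (shared with Y81G3A.1), larp-1 had 1173 (shared with wip-1) and ifet-1, an eIF4E-binding repressor gene, had 1047 (shared with rps-1). Of the paired eIF5A genes, iff-2 had 1097, in a peak shared with F54C9.14, and the germline gene iff-1 had 143, in a peak shared with cdk-1. The release factor genes erfa-1 and erfa-3 had 221 and 200, shared with gad-1 and math-33.

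Other peaks of that list lay at the eIF4A gene inf-1 (114), the poly(A)-binding protein genes pab-1 (127) and pab-2 (128), abcf-1 (139) and abcf-3 (224). Further ones lay at mnk-1 (233), dohh-1 (240), daf-15 (346) and the mitochondrial factor genes gfm-1 (206), tufm-1 (115) and tufm-2 (200). Of these, only the peaks of pab-2, mnk-1, daf-15 and tufm-1 lay in the window of no other gene. The 12 unbound genes included the eIF4G gene ifg-1, the eIF5B gene iffb-1, the eEF2 kinase gene efk-1, and let-363, rsks-1 and pek-1 of the TOR and stress kinase pathways. Ribosomal protein genes were bound in 67 of 78 cases (85.9%, 76.5% to 91.9%), with a median signal of 281, and aminoacyl tRNA synthetase genes in 12 of 31 (38.7%, 23.7% to 56.2%), with a median of 187. Differences between these lists were not tested.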

How the data were processed

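Per the file names and labels, the authors deposited 3 relaxed lists of 30000 regions (replicate 1, replicate 2 and pooled), given as input to an IDR procedure, and an optimal list of 3449 peaks that passed it, in build ce11 (WBcel235). The optimal list equals the 3449 strongest pooled regions. Each deposited region carries a signal value, used here to rank and describe regions within a list, a −log10 q value, and a summit offset. The −log10 q values the authors deposited were not used, since strong regions share a maximum. Which aligner and caller were run, with what IDR threshold and at what depth, is not stated by the labels. Signals of separate lists are printed side by side, since pooled signals are on a larger scale.

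Coordinates are 1-based. The software was numpy 2.4.6, scipy 1.17.1, pandas 2.3.3 and matplotlib 3.10.9 under Python 3.11.15. Genes came from Ensembl release 115 and sequence from the RefSeq genome of WBcel235. Where a window held several summits, the strongest was taken. Replicate values of bound genes come from the strongest overlapping region. Planted summits and motifs were recovered in a test on simulated data. Genes, lists and tests were chosen with earlier results of these data known. The naming rule took all bound eef and ife genes, the 3 strongest of each other role, and all bound genes of the list of other translation factors, of whose 38 symbols 5 matched no gene in the annotation. egl-45 and cif-1 were added later, and CHR pairs and neighbour classes were examined after values were seen. Alternatives were a shorter peak list, single replicates, other windows, nearest-gene assignment and other motif distances.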

Additional observations from a re-analysis of the deposited data

How the results depend on the processing

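Of the 36 genes, 22 were bound in the main setting, 20 with a window of 500 bp upstream to 200 bp downstream, 23 with one of 2000 bp to 500 bp, and 16 with nearest-gene assignment. With the 1724 strongest IDR peaks it was 14, against 8.90% of all genes, and the median signal was 364 and the median position -232 bp; this shorter list leaves out the weaker peaks by construction. With a single replicate it was 22 to 24, the median signal was 103 to 119, on the scale of a single library, and the median position -249 bp to -232 bp. Without replicate 1, eif-2A and ife-2 were added, and without replicate 2, eif-1 was lost and ife-1 added. With nearest-gene assignment the median position was -232 bp, and 13 of the 33 other translation factor genes were bound in place of 21. The CHR share was 18.2% within 25 bp of the summit, against 15.1% of all promoter IDR peaks; the cause was not tested. The number of peaks met in both replicates was 21 with an overlap of 50% or of 1 bp. Depth is unknown, so an unbound gene was not detected at this threshold, which does not show absence of binding. No paired analysis was possible because there is 1 group.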

Other observations

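At 2 unbound genes the promoter window held a region that was among the 3449 strongest of one replicate and overlapped no region of the other. In replicate 2, eif-2A had a region with a signal of 71.7 at -121 bp (rank 2314; II, 10416527 to 10416830) and ife-2, a somatic eIF4E gene, one with 59.2 at -188 bp (rank 2957; X, 382745 to 383048). Neither overlapped any region of replicate 1 or of the pooled list. Weaker regions of a single replicate lay at eif-2D (24.4 in replicate 2, and a weaker one elsewhere in the window in replicate 1) and at eif-2Bepsilon (24.9 in replicate 1). Of the 3449 strongest regions of replicate 2, 94 (2.73%) overlapped no pooled region, and 53 of these lay in a promoter window. Of those of replicate 1, 111 (3.22%) overlapped none, and 64 of these lay in a promoter window. The share of all genes with such a region was not counted.

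Unbound genes differed in how far the nearest IDR summit lay. It was 904 bp downstream of the 5′ end at ife-5 (signal 483), 1810 bp upstream at eif-2alpha (153), where the wider window includes it, and 2064 bp upstream at eif-4A3 (126). At eif-2Bepsilon and eif-3.F it was 58138 and 46214 bp upstream.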
